A study of Mus musculus with 38 samples.

Results

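The lysosomal cathepsins Ctsa, Ctsb, Ctsc, Ctsd, Ctsh, Ctsk, Ctsl, Ctss and Ctsz were measured in mouse liver by 27 probes among the 36607 probes of a 2-colour array, whose annotation gives 17501 genes a symbol of their own. The members were all probes whose platform annotation gives 1 of these 9 gene symbols. The set was chosen by measured values of the same arrays, the log2 ratios of knockout and control livers at 3 months: Ctsc entered it because it had the largest fall there and because its 2 probes fell by different amounts. The members' values in the genotype contrast at 3 months are therefore given as a description. Counts of member probes called there are set beside those of all probes, and nothing is read from them. Of the 9 genes, Ctsd had 15 probes, Ctsa, Ctsb, Ctsc and Ctsz had 2 each, and Ctsh, Ctsk, Ctsl and Ctss had 1 each.

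The knockout mice carried Alb-Cre +/-; Met Fl/Fl on a strain given as 129SV/C57BL6. Cre under the albumin promoter is meant to delete the growth factor receptor gene Met in hepatocytes, and deletion in other liver cells was not measured. The control mice carried Alb-Cre +/- on a strain given as B6129, and so shared the Cre transgene but not the floxed allele, and differed in the way the strain is written. All 20 mice were males that had received the liver carcinogen N-nitrosodiethylamine (DEN) at 10 µg per g body weight when 14 days old, and no group was left without DEN. There were 5 knockouts and 5 controls at 5 months, and 5 knockouts and 5 controls at 3 months. The labels give their ages as 20 weeks and 12 weeks, which is too young for 5 and 3 months to have passed since a dose given on day 14, so the exact time since DEN is not settled. Each liver was hybridised against 1 pool of RNA from 5 untreated wild-type males of 12 weeks. Every value below is the log2 ratio of the liver to that pool, 1 value per mouse, and every difference is a knockout mean minus a control mean, or a 5-month mean minus a 3-month mean, on that log2 scale, with its standard error (SE). A probe's level cannot be set against another probe's.

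Some features of the whole series touch all of the values. The sign of the deposited ratios is not stated and was taken as Cy5 over Cy3. This reading is likely, since the fetal liver genes H19 and Afp then reach 3.31 and 2.51 in 5-month knockout livers. These are the highest mice of that group, where H19 ran from -0.10 and Afp from 0.14. Both genes lay above the reference in all 5-month controls, and on either side of it in both 3-month groups. If the ratios run the other way, each higher below is a lower, and the reverse. Array titles fall into 4 runs of consecutive array numbers, called series A to D here. Series A held all 5 of the 5-month controls and 2 of the 5-month knockouts, and series B held the other 3 of the 5-month knockouts. Series C and D held the 3-month mice of both genotypes. Age and array series cannot be told apart. The single Met probe was not called in either genotype contrast, with differences of -0.05 at 5 months (limma adjusted p = 0.979) and 0.42 at 3 months (limma adjusted p = 0.655). Whether it lies in the deleted exons is not stated, so it does not check the genotype labels. For 5-month control 4, the array with its liver in Cy5 correlated at -0.61 to -0.48 with the 10 liver-in-Cy5 arrays of 3-month mice over all probes. It correlated at 0.70 with its own dye swap after turning. A dye swap should turn the sign, but before turning, the 2 arrays of a mouse correlated at -0.70 to 0.18 over all probes in 5-month mice and at 0.34 to 0.51 in 3-month mice. A probe's dye effect, estimated over the 18 mice with both orientations, was therefore subtracted. The labels do not give separate litters or cages, and p-values measure the spread between these mice.

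Cathepsins are proteases that digest proteins in the acid interior of the lysosome. Most are cysteine proteases (B, C, H, K, L, S and Z), cathepsin D is an aspartic protease, and cathepsin A is a serine carboxypeptidase that also protects other lysosomal enzymes. They are made as inactive precursors and reach the lysosome largely through mannose 6-phosphate receptors. Outside it, the cysteine proteases among them are held in check by cystatins. In liver, cathepsins occur in hepatocytes and in Kupffer cells, the resident macrophages. Several lysosomal genes carry the E-box letters CACGTG that the transcription factor TFEB and its relatives recognise.

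The letters CACGTG, which read the same on both strands, were looked for in the RefSeq start-site windows of the members (GRCm38.p6, 250 bases before to 50 after the start). Of the 9 genes, 7 had a window, in 8 windows in all, and 3 of these genes (Ctsa, Ctsd and Ctsl) held the letters. Over all genes with a window, 8.09% held them, and 7.15% of all 32851 windows did. The stretches below show, in capitals, those matches that lie before the start of their window. They also show the 250 bases before the window start of Ctsc, the gene with the largest difference in these livers, where the letters are not found. For Ctsa, Ctsc and Ctsl the annotated gene begins earlier than the window start used, so these stretches lie at least partly within the gene. The window at the earlier Ctsa start held no match. Each is written 5′ to 3′ on the strand of its gene. The matches describe the letters only.
Ctsa (chr2:164833713-164833772, plus strand): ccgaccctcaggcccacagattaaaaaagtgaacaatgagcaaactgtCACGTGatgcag
Ctsd (chr7:142388018-142388077, minus strand): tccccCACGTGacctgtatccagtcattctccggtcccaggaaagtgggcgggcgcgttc
Ctsd (chr7:142387893-142387952, minus strand): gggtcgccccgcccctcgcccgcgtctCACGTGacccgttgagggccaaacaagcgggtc
Ctsl (chr13:64370711-64370770, minus strand): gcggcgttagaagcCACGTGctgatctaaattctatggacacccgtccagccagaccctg
Ctsc (chr7:88277835-88278084, plus strand): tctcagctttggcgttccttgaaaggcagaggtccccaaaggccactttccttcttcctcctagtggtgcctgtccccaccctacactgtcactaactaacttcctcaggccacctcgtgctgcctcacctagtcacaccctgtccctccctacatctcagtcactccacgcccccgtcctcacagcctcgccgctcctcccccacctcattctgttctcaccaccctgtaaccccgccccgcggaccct

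Among the 9 cathepsins, Ctsc stood lower in knockout than in control livers at both ages, on both of its probes, with no overlap between the genotypes. Of all probes, 1.33% were lower without overlap at 5 months and 0.929% at 3 months. Ctsc encodes cathepsin C (dipeptidyl peptidase 1), which removes dipeptides from protein ends and activates the granule serine proteases of neutrophils, mast cells and cytotoxic lymphocytes. In 3-month mice, Ctsc probe 1 read -3.31, -0.08, -2.25, -2.18 and -0.76 in knockouts. The 3-month controls read 1.55, 1.11, 1.51, 1.29 and 1.05. All 5 knockouts were therefore below all 5 controls, and the knockouts spread far more widely among themselves than the controls did. The means were -1.71 ± 1.29 in knockouts and 1.30 ± 0.23 in controls (SD, n = 5 each), a difference of -3.02 ± 0.51 (SE), or 8.09-fold lower. Within array series C the 3-month difference was -3.08, and within series D it was -2.90.

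In 5-month mice, Ctsc probe 1 read 0.02, -0.02, -2.44, -1.78 and -0.44 in knockouts. The 5-month controls read 1.15, 0.72, 0.70, 0.16 and 0.38. Again all 5 knockouts lay below all 5 controls, with 2 knockouts close to the lowest control and 3 well below it. The means were -0.93 ± 1.12 in knockouts and 0.62 ± 0.37 in controls (SD, n = 5 each), a difference of -1.55 ± 0.51 (SE), which did not pass limma's test over all probes (adjusted p = 0.286). An exact two-sided permutation test of this probe alone over the 252 arrangements of the 10 mice gave p = 0.00794, the smallest it can give. Any probe whose genotypes do not overlap gets this value, so the test restates the separation and adds nothing to it. The 3 low knockouts were those of array series B, which held no control, and in series A alone the difference was -0.62 (limma adjusted p = 0.316). The low knockouts and that series go together, and the part of the series in the difference was not tested.

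**Figure D1:**
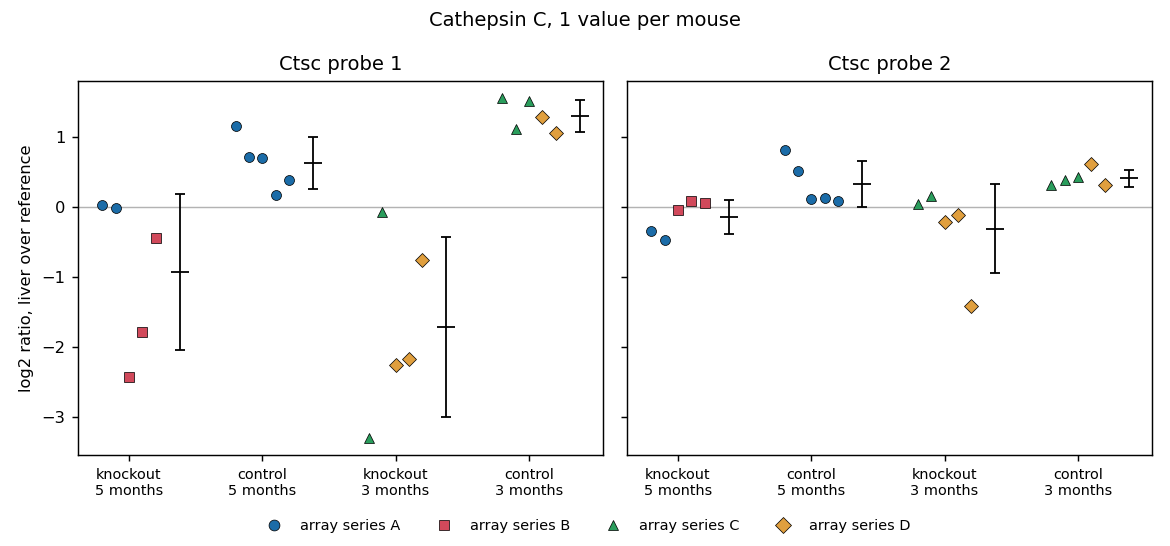
Log2 ratio of liver to reference pool for both Ctsc probes, 1 point per mouse in 4 groups of 5, with bars for the mean and SD and symbols for the array series. On probe 1 the 3-month knockouts sit between -3.31 and -0.08 and the 3-month controls between 1.05 and 1.55, and on probe 2 the genotypes lie closer but do not overlap at either age.

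Ctsc probe 2 gave a smaller difference. In 3-month knockouts it read 0.03, 0.16, -0.22, -0.12 and -1.41, against 0.31, 0.39, 0.42, 0.61 and 0.31 in 3-month controls. Here the knockouts lay just under the controls except for knockout 5, which was far lower, and the difference of -0.72 ± 0.23 (SE) shrank to -0.45 without that mouse. In 5-month knockouts it read -0.34, -0.48, -0.04, 0.08 and 0.05, against 0.82, 0.51, 0.11, 0.12 and 0.09 in 5-month controls. The genotypes were separate but touched, and the difference of -0.48 ± 0.23 (SE) did not pass limma's test over all probes (adjusted p = 0.491). The exact two-sided permutation test of this probe alone over the 252 arrangements gave p = 0.00794, again the smallest it can give and fixed by the lack of overlap. Within series A the difference on probe 2 was -0.74 (limma adjusted p = 0.249).

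The probes disagreed in which mice were low. Knockout 1 at 3 months was the lowest of its group on probe 1, at -3.31, and read 0.03 on probe 2, while knockout 5 read -0.76 on probe 1 and was the lowest on probe 2. Over the 20 mice, the deviations of probe 1 and probe 2 from their group means had a Pearson r of -0.24. Both probes are annotated to the same RefSeq transcript of Ctsc (chromosome 7, 88278024 to 88315861, GRCm38.p6). The sequences of the probes were not used here, so the part of the transcript that each one reads is not known.

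The dye of the liver sample changed the size of the probe 1 difference at 3 months but not its sign. At 3 months, the knockout arrays with the liver in Cy5 read -4.78, -0.41, -3.34, -2.55 and -1.11. The arrays of the same 5 livers in Cy3, turned to liver over reference, read -1.84, 0.25, -1.17, -1.81 and -0.40. Every knockout read lower in Cy5 than in Cy3, by 0.66 to 2.94, and the 5 controls did so too, by 0.18 to 0.59. The difference between the genotypes at 3 months was -3.55 on the Cy5 arrays and -2.48 on the Cy3 arrays. At 5 months it was -1.90 and -1.06, but the 2 orientations did not hold the same knockouts. Knockout 3 had only a Cy5 array, at -2.66, and knockout 2 only a Cy3 array, at 0.20. In the 3 knockouts with both arrays, Cy5 minus Cy3 ran from -0.29 to 0.58. The part of the dye in the 5-month values was not tested.

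**Figure D2:**
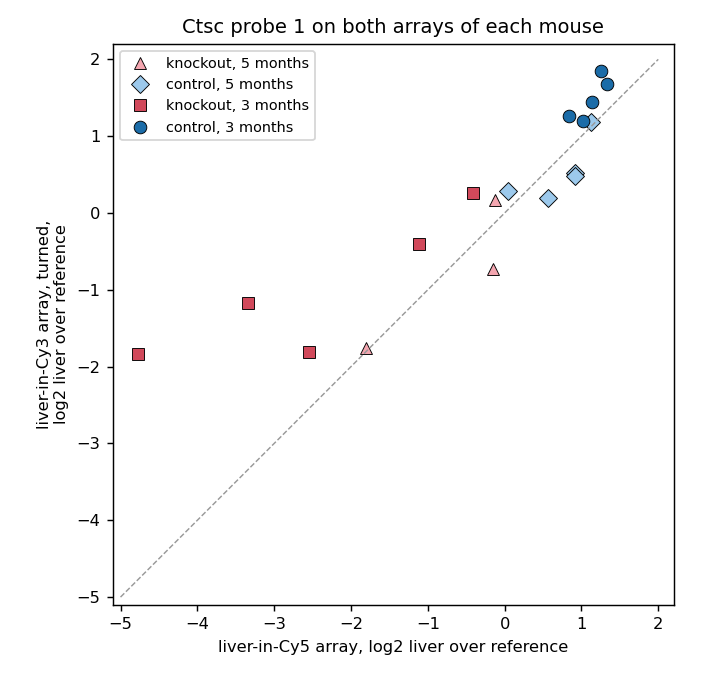
Ctsc probe 1 on the 2 arrays of each mouse that had both dye orientations (18 mice), with the liver-in-Cy5 array on the horizontal axis and the turned liver-in-Cy3 array on the vertical axis, both as log2 of liver over reference. The dashed line marks equal readings; the 3-month knockouts lie above it, lower in Cy5 than in Cy3 in 5 of 5 mice.

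Between the ages, the 5-month minus 3-month difference of Ctsc probe 1 was 0.78 ± 0.51 (SE) in knockouts and -0.68 ± 0.51 (SE) in controls. Both are descriptions, since the 3-month values that enter them chose the gene. The SE pools the wide spread of the knockouts, and in a fit of the 10 controls alone it was 0.19. The genes whose deviations from the group means were most like those of Ctsc probe 1 over the 20 mice were Ddx6 (r = 0.79), Cldn2 (0.78), Zmynd11 (0.75), Retn (0.75) and Msx3 (0.74). They were picked as the highest r of all named probes, and how high such a search reaches by chance was not tested. Array series was not taken out of the deviations. None of these 5 passed limma's test in either genotype contrast, with 5-month differences from -0.23 for Retn to 0.22 for Msx3.

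The proteases that cathepsin C activates were read by 10 probes of 10 genes, the neutrophil, mast cell and lymphocyte granule enzymes. None passed limma's test in either genotype contrast, and their median difference was -0.08 at 5 months and -0.05 at 3 months. At an unadjusted p under 0.05, 2 were lower at 5 months and 1 at 3 months. That threshold was passed by 10.5% of all probes at 5 months and by 7.96% at 3 months. At 5 months the widest differences were those of Prtn3, neutrophil proteinase 3, at -0.87 ± 0.39 (SE; limma adjusted p = 0.441), and Mcpt4, a mast cell chymase, at -0.61 ± 0.21 (SE; limma adjusted p = 0.308). Of the neutrophil markers, 0 of 16 probes were called in either genotype contrast, 0 had an unadjusted p under 0.05 at 5 months and 2 at 3 months, and the medians were -0.08 and -0.02. Mast cell markers had 0 of 7 probes called at both ages, with medians of -0.12 and -0.08. The mean of the 16 neutrophil probes ranged from -0.10 to 0.32 in 5-month knockouts and 0.01 to 0.28 in 5-month controls, and from -0.53 to -0.17 in 3-month knockouts and -0.44 to -0.09 in 3-month controls. Elane is in both the protease and the neutrophil list, and Cma1, Mcpt4 and Tpsb2 are in both the protease and the mast cell list. Levels and markers come from whole liver, where fewer cells of a type and less RNA per cell cannot be told apart.

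After Ctsc probe 1, Ctss had the largest difference of the member probes at 5 months, and it was the only one called by limma between the ages. Ctss encodes cathepsin S, the protease of antigen-presenting cells that trims the invariant chain (Cd74) from MHC class II molecules. In 5-month mice it read -0.22, -0.29, 0.44, 0.61 and 0.33 in knockouts. The 5-month controls read -0.50, -0.62, -0.25, -1.02 and -0.71. All 5 knockouts stood above the control mean, and 1 control lay within the knockouts' range. The difference of 0.79 ± 0.23 (SE, 1.73-fold) did not pass limma's test (adjusted p = 0.222). In series A alone it was 0.37 (limma adjusted p = 0.458), and the 3 knockouts of series B were the highest. With quantile normalisation of the arrays Ctss was called, at 1.17 (limma adjusted p = 0.0183).

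In 3-month mice Ctss read 0.36, 0.83, 0.38, 0.48 and -0.31 in knockouts. The 3-month controls read 0.23, 0.15, 1.12, 0.46 and 0.51. These groups overlapped, with a difference of -0.15 ± 0.23 (SE). In controls Ctss fell at 5 months relative to 3 months by 1.12 ± 0.23 (SE), with all 5 of the older mice below all 5 of the younger (limma adjusted p = 0.00485). The probes called lower in that contrast made up 7.25% of the array, and those called in either direction 14.7%. In knockouts the same contrast was -0.18 ± 0.23 (SE; limma adjusted p = 0.654). At 5 months the 2 knockouts of series A read -0.22 and -0.29, and the 3 of series B read 0.44, 0.61 and 0.33. All 5-month controls lay in series A. The difference between these age contrasts was not tested, nor was the part of the array series in it.

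**Figure D3:**
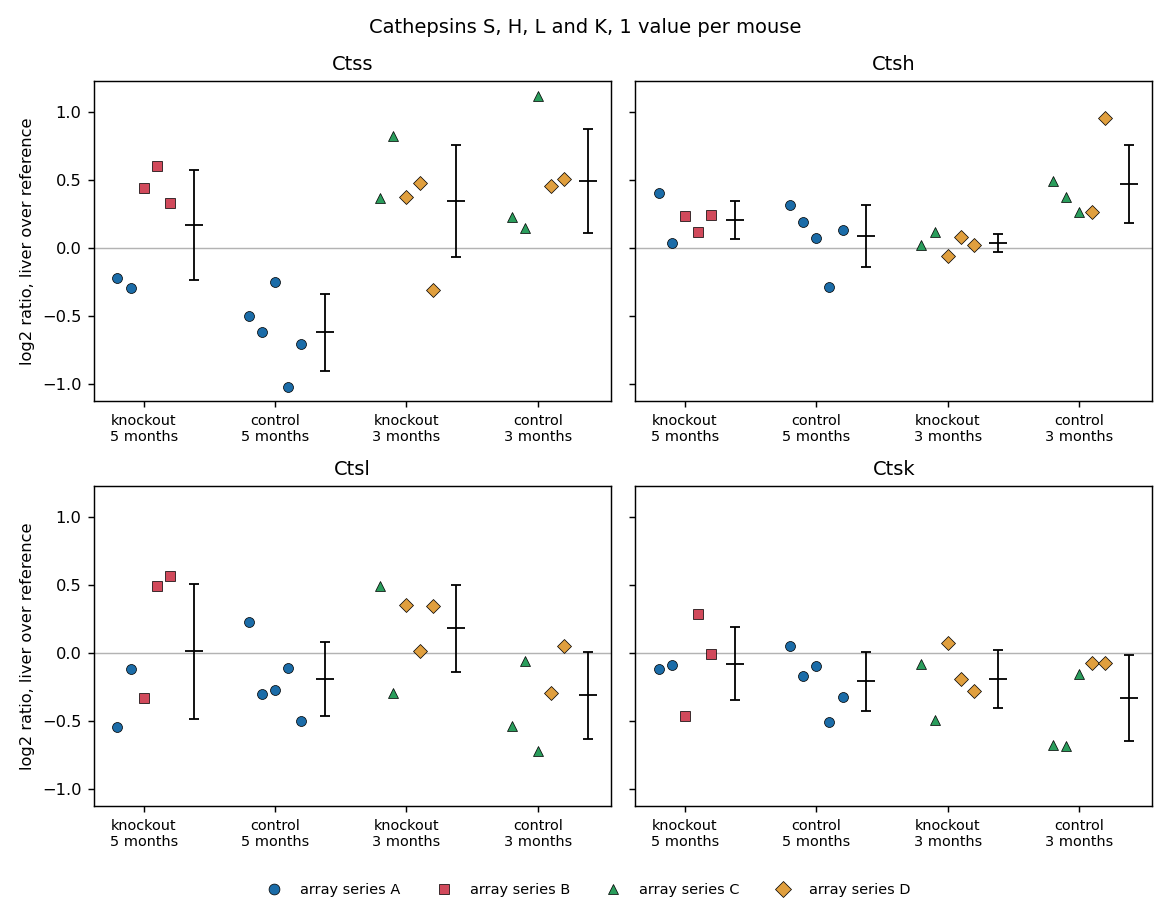
Log2 ratio of liver to reference pool for the 4 cathepsins with a single probe (Ctss, Ctsh, Ctsl and Ctsk), 1 point per mouse in 4 groups of 5, with bars for the mean and SD and symbols for the array series. Ctss is lowest in the 5-month controls, from -1.02 to -0.25, and Ctsh in 3-month knockouts lies between -0.06 and 0.12, below the 3-month controls at 0.26 to 0.95.

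The 5 genes closest to Ctss included 3 of MHC class II presentation, H2-Ab1, Cd74 and H2-Aa. The closest by deviations from the group means over the 20 mice were Fcer1g, the shared chain of Fc receptors (r = 0.91), H2-Ab1 (0.88), Cd74 (0.87), Tmsb4x (0.86) and H2-Aa (0.85). These too were picked as the highest r of all named probes, with array series left in the deviations. As a list, the MHC class II genes had 16 probes of 11 genes, of which 0 were called in either genotype contrast. At an unadjusted p under 0.05, 2 were higher at 5 months, and 1 was higher and 4 were lower at 3 months. Of all probes, 10.5% passed that threshold at 5 months and 7.96% at 3 months. The list's median was 0.36 at 5 months, with 12 probes higher and 4 lower, and -0.39 at 3 months, with 3 higher and 13 lower; over all probes these medians were 0.01 and -0.02. H2-Aa differed by 0.66 ± 0.44 (SE; limma adjusted p = 0.667) at 5 months and H2-Eb1 by 0.64 ± 0.24 (SE; limma adjusted p = 0.36). The mean of the 16 probes ranged from -0.22 to 0.76 in 5-month knockouts and from -0.07 to 0.39 in 5-month controls.

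Markers of macrophages, endothelium and hepatocytes all stood mostly higher in knockouts at 5 months, as Ctss did, and 0 were called. Of the other marker lists, T and NK cell probes were 7 higher and 6 lower at 5 months, B and plasma cell 3 and 3, and stellate cell 9 and 6. Cholangiocyte probes were 3 higher and 1 lower, neutrophil 5 and 11, and mast cell 1 and 6. Of these lists too, 0 probes were called. Of the 21 Kupffer cell and macrophage probes, 15 were higher and 6 lower, with 9 higher and 1 lower at an unadjusted p under 0.05, a threshold that 10.5% of all probes passed. The widest differences were those of Adgre1, a macrophage surface receptor, at 0.88 ± 0.26 (SE; limma adjusted p = 0.241) and C1qc at 0.66 ± 0.20 (SE; limma adjusted p = 0.236). The mean of the 21 probes ranged from -0.13 to 0.27 in 5-month knockouts and from -0.36 to 0.03 in 5-month controls, and from -0.39 to 0.32 in 3-month knockouts and -0.06 to 0.29 in 3-month controls. Of the 12 sinusoidal endothelial probes, 10 were higher and 2 lower at 5 months, 5 of them higher at an unadjusted p under 0.05. The mean of the 12 ranged from -0.04 to 0.17 in 5-month knockouts and from -0.29 to -0.11 in 5-month controls, without overlap. How often the mean of 12 probes separates these groups was not tested. Of the 10 hepatocyte probes, 10 were higher at 5 months, 3 of them at an unadjusted p under 0.05, with Cps1 at 0.80 (limma adjusted p = 0.257) and Tat at 0.68 (limma adjusted p = 0.368). Their mean ranged from 0.0002 to 0.27 in 5-month knockouts and from -0.54 to 0.12 in 5-month controls. Series B, with 3 of the 5 knockouts of that age, held no control. The part of the array series in these marker values was not tested.

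In controls 18 of the 21 macrophage probes stood lower at 5 months than at 3 months, and limma called 4 of them. The list's median was -0.34, against 0.13 for all probes. Of the 12 endothelial probes 9 stood lower and 3 were called lower, with a median of -0.25. Of the 10 hepatocyte probes 10 stood lower and 2 were called lower, with a median of -0.35. Over all probes 7.25% were called lower in that contrast. Cd68 is both in the macrophage list and in the list of lysosomal membrane proteins below. The part of these cell types in the Ctss values was not tested.

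Ctsh encodes cathepsin H, an aminopeptidase of the same papain family, and showed the third case of separate genotypes at 3 months. It read 0.02, 0.12, -0.06, 0.08 and 0.02 in 3-month knockouts, against 0.49, 0.38, 0.26, 0.27 and 0.95 in 3-month controls. The knockouts were tightly grouped below every control, a difference of -0.43 ± 0.14 (SE). In 5-month knockouts it read 0.40, 0.04, 0.23, 0.12 and 0.24, against 0.32, 0.19, 0.08, -0.29 and 0.13 in 5-month controls. At that age the genotypes overlapped, with a difference of 0.12 ± 0.14 (SE; limma adjusted p = 0.86).

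Ctsl, the endopeptidase cathepsin L, had the higher mean in knockouts at 3 months. It read 0.49, -0.30, 0.35, 0.01 and 0.35 in 3-month knockouts and -0.54, -0.06, -0.72, -0.29 and 0.05 in 3-month controls. The groups overlapped, with a difference of 0.49 ± 0.22 (SE), which was 0.21 ± 0.22 (SE; limma adjusted p = 0.85) at 5 months. Ctsk, best known as the collagen-degrading protease of osteoclasts, differed by 0.13 at 5 months (limma adjusted p = 0.885) and 0.14 at 3 months, with overlapping genotypes at both ages.

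Genes with 2 probes other than Ctsc showed small differences. Ctsb, the abundant cathepsin B of liver, differed by 0.09 and 0.16 at 5 months and by 0.15 and 0.27 at 3 months. Ctsa, the protective carboxypeptidase, stood lower on both probes at 5 months, by -0.40 and -0.33 (limma adjusted p = 0.468 for the first), and by -0.06 and -0.35 at 3 months. The second probe was at -0.75 on the Cy3 arrays and 0.06 on the Cy5 arrays at 5 months, which did not hold all the same knockouts. At 3 months, with the same mice in both, it was at -0.73 and 0.02, so its direction rests on 1 dye orientation. Ctsz, a carboxypeptidase, differed by -0.02 and -0.08 at 5 months and 0.01 and -0.14 at 3 months. The 2 probes of Ctsz followed each other over the 20 mice (r = 0.86 for deviations from the group means), those of Ctsb hardly did (0.09) and those of Ctsa did not (-0.26).

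Ctsd, the aspartic protease, gave the best view of how probes of a single gene vary, with 15 of them. At 5 months their differences ran from -0.18 to 0.59, 10 higher and 5 lower, with a median of 0.06, and none was called. At 3 months they ran from -0.21 to 0.22, 9 higher and 6 lower, with a median of 0.07. The widest at 5 months was probe 8, which read 0.04, 0.51, 0.79, 1.31 and 0.26 in knockouts and 0.29, -0.08, 0.48, -0.52 and -0.20 in controls (limma adjusted p = 0.45). Those groups overlapped. Over the 105 pairs of Ctsd probes, r of the deviations ran from -0.48 to 0.89 with a median of 0.38 across the 20 mice.

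**Figure D4:**
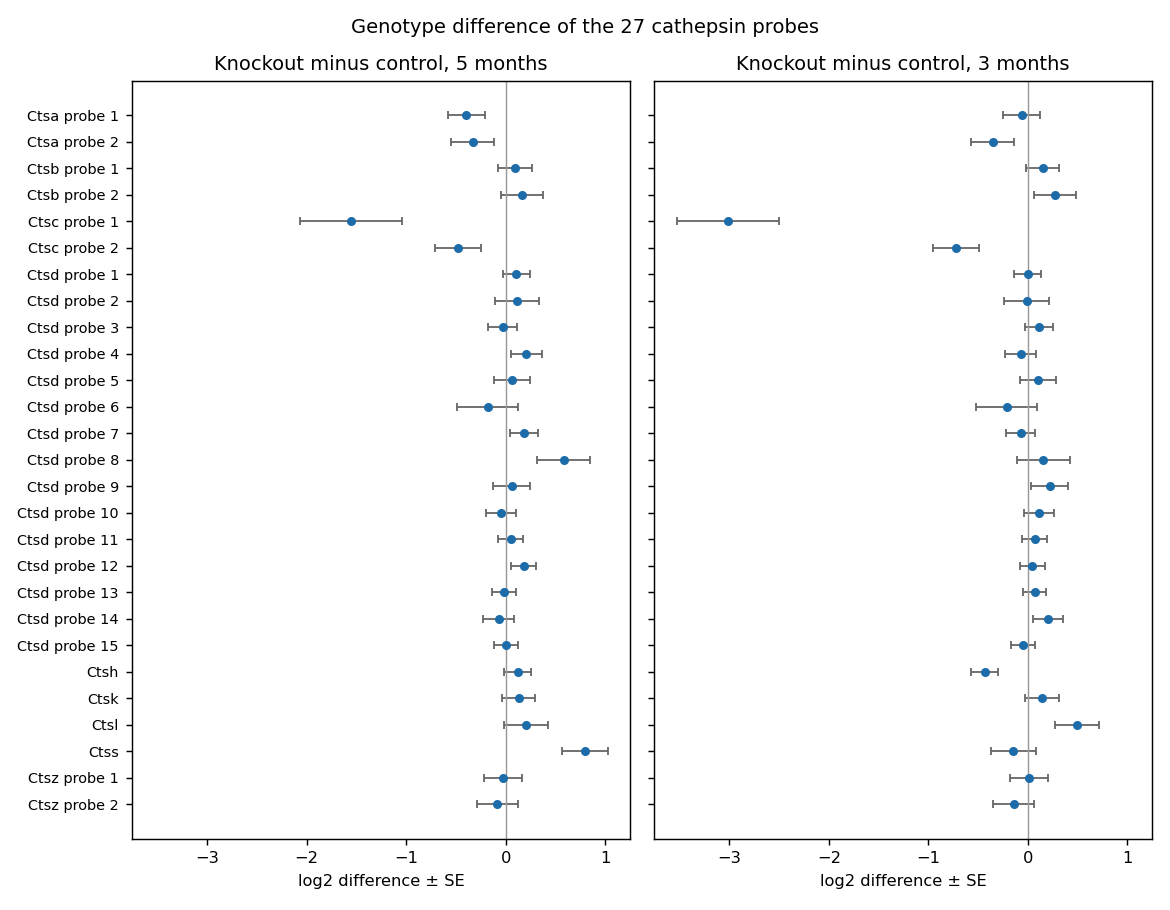
Knockout minus control difference (log2, with SE from limma) for each of the 27 cathepsin probes, at 5 months on the left and 3 months on the right. The Ctsc probe 1 points at -1.55 and -3.02 stand apart, and the 25 probes of the other 8 genes lie between -0.40 and 0.79 at 5 months and between -0.43 and 0.49 at 3 months.

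Counted together, the 27 probes showed no shared direction. At 5 months 16 were higher and 11 lower, with a median of 0.06 against 0.01 over all probes. None was called, where limma called 53 of all probes (0.145%), and 4 had an unadjusted p under 0.05, as did 10.5% of all probes. The genotypes did not overlap for 2 member probes, both of Ctsc and both lower, against 1.33% of all probes. At 3 months 14 were higher and 13 lower, with a median of 0.01 against -0.02 over all probes. At that age 1 member probe, Ctsc probe 1, was among the 13 called (0.0355%). Lower without overlap were 3 probes, both of Ctsc and that of Ctsh (0.929% of all probes). The choice of members rested on the Ctsc values at that age, so nothing is read from these counts. Ctsc probe 1 was still called without knockout 2 or knockout 5, and was not called when any other 3-month mouse, or the Cy5 array of the fourth 5-month control, was left out. With age, 0 of the 27 were called in knockouts (4.73% of all probes) and 1 in controls (14.7%). A fit of the 10 controls alone called 2, Ctss and Ctsc probe 1 at -0.68. The Ctsc value is a description, since 3-month values chose the gene. The Cy5 and the Cy3 arrays gave the same sign of the genotype difference for 19 of the 27 probes at 5 months (70.4%, against 55.1% of all probes) and for 17 at 3 months (63%, against 57.2%).

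No other gene of the lysosome listed was called between the genotypes. Among 14 probes of the remaining cathepsins, Ctse, an aspartic protease outside the classical lysosome, differed by -0.89 ± 0.41 (SE; limma adjusted p = 0.458) at 5 months and -1.91 ± 0.41 (SE; limma adjusted p = 0.12) at 3 months. Ctsr, a placental cathepsin of rodents, differed by -0.65 and 0.49 at these ages. The list's median was -0.19 at 5 months and 0.03 at 3 months. The 19 probes of cystatins and other inhibitors had medians of -0.02 and -0.15, with the widest 5-month differences in Cst6 (0.84, limma adjusted p = 0.606) and Kng1 (0.52, limma adjusted p = 0.275).

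The 12 probes of other lysosomal peptidases had a median of 0.06 at both ages. Their widest 5-month differences were in Cpq (0.47, limma adjusted p = 0.226) and Lgmn, the legumain that processes cathepsin precursors (0.46, limma adjusted p = 0.231). The other Cpq probe was at -0.09. The 44 probes of glycosidases, sulfatases and lipases had medians of 0.03 and -0.04, led by Man2b1 (0.43, limma adjusted p = 0.315) and Asah1 (0.41, limma adjusted p = 0.575). The 44 probes of the list of lysosomal membrane proteins and the proton pump had medians of 0.13 at 5 months, with 34 higher and 10 lower, and 0.01 at 3 months. In that list Npc2, a soluble cholesterol carrier, differed by 0.49 ± 0.12 (SE; limma adjusted p = 0.148) and Laptm4a by 0.37 ± 0.11 (SE; limma adjusted p = 0.261) at 5 months. The 18 probes of the sorting receptors and the TFEB family had medians of 0.07 and -0.05. Their widest 5-month differences were in Gnptg (0.35, limma adjusted p = 0.481) and the sorting receptor Sort1 (-0.34, limma adjusted p = 0.614). The other Sort1 probes were at 0.06, 0.08 and -0.26. No probe of these 6 lists was called in either genotype contrast by limma, and their calls at an unadjusted p under 0.05 were close in share to those of all probes. Of their 151 probes, 13 were higher and 4 lower at 5 months (11.3%, against 10.5% of all probes), and 5 were higher and 7 lower at 3 months (7.95%, against 7.96%). Between the ages limma called 8 of the 151 in knockouts (5.3%, against 4.73% of all probes) and 19 in controls (12.6%, against 14.7%).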

How the data were processed

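Total RNA of 20 livers was hybridised to 38 arrays against 1 reference pool, with dyes swapped for 18 mice and 1 array for the other 2. Per the series' design text, arrays were scanned on a GenePix 4000A scanner and the authors scaled each to its median intensity. The deposited values are log2 ratios of the dyes made by the authors, and their centring is not stated. Base 2 was read from the values, since steps of 0.585, which is log2 of 1.5, recur on 38 of 38 arrays. The file's probes pair with 1 gene symbol for 26926, several for 203 and none for 9478. Signs were set so that liver stood over reference on every array, each probe's dye effect was taken off, and dye swaps of 1 mouse were averaged.

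All 20 mice and all 36607 probes entered 1 fit with limma 3.58.1 in R 4.3.3, with p-values adjusted by Benjamini-Hochberg over all probes, and a probe was called at an adjusted p under 0.05. limma's test was checked on simulated data. Per the design text, the authors used a 2-sample t-test at a threshold of 0.001 in BRB ArrayTools 3.3.0. The number of arrays, and no depth, limits the precision. Members and gene lists were chosen with earlier results of these data known. Every member probe was to be named, of each other list the called probes and the 2 with the widest 5-month difference, and the 5 genes most like Ctsc probe 1 and Ctss. Alternatives were other normalisations, single dye orientations, array series, subsets of mice and the methods' t-test.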

Additional observations from a re-analysis of the deposited data

Results flagged for a closer look

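Of 108 groups of 5 mice tested, 1 for each member probe in each group, 8 held a mouse whose distance from its nearest neighbour passed Dixon's 95% limit, where chance marks about 5%. Ctsc probe 2 read -1.41 in 3-month knockout 5, against -0.22 to 0.16 in the other 4 knockouts of that age. Ctsd probe 6 read 1.05 in 5-month knockout 3, against -0.14 to 0.12 in the others, and Ctsd probe 5 read 0.36 in 5-month knockout 2, against 0.60 to 0.63. In 5-month control 4, Ctsd probe 2 read -0.78, against -0.11 to -0.03 in the other controls, and Ctsd probe 4 read -0.79, against -0.09 to 0.01. That mouse also holds the liver-in-Cy5 array that correlated negatively with those of the 3-month mice. Ctsz probe 2 read 0.018 in 3-month knockout 1, against 0.13 to 0.17, and -0.034 in 3-month control 5, against 0.32 to 0.37. Ctsd probe 10 read 0.22 in 3-month control 5, against 0.44 to 0.51 in the other controls of that age.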

How the results depend on the processing

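At 5 months 0 of the 27 probes were called as reported and 1, Ctss, with quantile normalisation; 0 were called in every other alternative. Over these, Ctsc probe 1 differed by -2.04 to -0.62. At 3 months 1 probe was called as reported, and also with median-centred arrays or the array series as a covariate, while 0 were called with quantile normalisation, no dye effect subtracted, 1 dye orientation alone, without the Cy5 array of the fourth 5-month control, within the mice of that age, within series C or D, or by the methods' t-test after adjustment; leaving out 1 mouse gave 0 to 1. The Ctsc probe 1 difference at 3 months kept its sign, at -3.55 to -2.48. Between ages, knockouts had 0 called as reported and 1 (Ctsd probe 6, 1.26) on liver-in-Cy5 arrays. Controls had 1 called as reported, Ctss, at -1.48 to -0.96 over 17 alternatives (limma adjusted p = 0.00055 to 0.0183). They had 4 called with median-centred arrays, 5 on liver-in-Cy5 arrays and 2 with quantile normalisation. With only the 10 controls fitted 2 were called, the second being Ctsc probe 1 at -0.68. That value is a description, since 3-month values chose the gene. Leaving out 1 mouse gave 1 to 2. Of the single values, 50 of 567 changed sign at 5 months and 46 of 594 at 3 months, and 9 and 11 of the 27 probes kept their sign in every alternative. Over all probes, 53 were called as reported and 0 to 776 under alternatives at 5 months, and 13 and 0 to 27 at 3 months. The methods' t-test at its unadjusted threshold of 0.001 passed 242 probes at 5 months, 0 of them members, and 63 at 3 months, 1 of them a member. Replicate numbers did not pair the mice (same-number r of -0.18 to 0.17 over all probes); with the replicate number as a block 0 member probes were called at either age, and Ctsc probe 1 kept its difference of -1.55 at 5 months (limma adjusted p = 0.365). The cause of these changes was not tested. The number of arrays and the dye effect limit these values, and signal over background was not used here.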
